A study of Mus musculus with 16 samples.

Results

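The genes described here are 10 genes of calcium handling and of the sarcomere that are typical of skeletal muscle fibres, measured in samples of mouse heart. They are Atp2a1, Ryr1, Casq1, Tnni1, Tnni2, Tnnt1, Tnnt3, Mybpc2, Mylpf and Myl1. They were found as the rows of the deposited count and FPKM tables that carry these symbols, and all 10 were present among the 24371 genes of the table. The genes were chosen by their measured levels in the contrast between genotypes in these same hearts, so the genotype values below are a description and carry no p.

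The 16 heart samples, called hearts here although the labels do not say that each is from its own animal, formed 4 groups of 4. Every one came from a mouse with both copies of Gpr91 floxed and with heart failure with preserved ejection fraction (HFpEF). All had received a high-fat diet and L-NAME, which blocks nitric oxide synthesis, for 12 weeks. The groups were Gpr91fl/fl mice (floxed hearts) and Myh6Cre Gpr91fl/fl mice (Cre hearts), each without and with succinate, the metabolite that activates this receptor. The Myh6 promoter drives Cre in cardiomyocytes, so other cells of the heart keep the floxed gene. Neither hearts without HFpEF nor Cre hearts without floxed alleles were among the samples, so the transgene and the deletion cannot be told apart, and the labels used here give no age.

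Libraries held 27835235 to 34700996 counts over 18038 to 19130 detected genes, and 14607 genes passed the filter on low counts. The genotypes did not overlap in detected genes, with 18038 to 18376 in floxed and 18537 to 19130 in Cre libraries. Their total counts did overlap, at 27835235 to 33120930 and 30404468 to 34700996. The cause of this split, which bears on genes of few counts, was not tested. The floor of 3 counts lay at 0.0865 to 0.108 CPM (the share of a library's total count, scaled as in every CPM value here), an allowance that covers counting error only. Sucnr1, the current symbol of Gpr91, had 0 to 7 counts in the floxed and 2 to 21 in the Cre libraries. In total these were 20 against 63, more and not fewer in the Cre libraries. At this depth the deletion could not be checked, and genotype refers to the labels. Defining markers of cardiomyocytes were abundant in all 16 libraries, with Myh6 at 2093 to 4251 and Tnnt2 at 3645 to 4617 FPKM (CPM divided by gene length in kilobases).

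In skeletal fibres, depolarisation of the cell membrane opens the ryanodine receptor Ryr1, which releases calcium from the sarcoplasmic reticulum, where calsequestrin (Casq1) buffers it. Calcium binding to the troponin complex then allows myosin to pull on actin, and the pump encoded by Atp2a1 (SERCA1) returns calcium to the store. Cardiomyocytes of the adult ventricle also release calcium from this store, contract and pump it back, but with other genes. These are chiefly Ryr2, Casq2, Atp2a2, Tnni3, Tnnt2, Mybpc3, Myl2 and Myl3. Tnni1, the slow skeletal troponin I, is also the main troponin I of the fetal heart and is replaced by Tnni3 around birth.

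Promoters of 8 of the 10 genes were found in RefSeq (GRCm38.p6), in 9 entries, and 3 are shown because Atp2a1, Ryr1 and Tnni1 lie lowest in floxed hearts per gene length (for Tnni1, the first of 2 entries). Each line gives the 250 bases before the start of the gene, 5′ to 3′ on its own strand, with matches to an E-box (CANNTG, the motif bound by myogenic helix-loop-helix factors) and to the MEF2 motif in capitals.
Atp2a1 (chr7:126463074-126463323, minus strand): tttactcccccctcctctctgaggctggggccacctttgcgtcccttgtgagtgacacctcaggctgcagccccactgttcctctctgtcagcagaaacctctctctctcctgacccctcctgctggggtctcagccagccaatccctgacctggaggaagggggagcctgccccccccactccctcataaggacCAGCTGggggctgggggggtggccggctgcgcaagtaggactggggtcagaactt
Ryr1 (chr7:29125152-29125401, minus strand): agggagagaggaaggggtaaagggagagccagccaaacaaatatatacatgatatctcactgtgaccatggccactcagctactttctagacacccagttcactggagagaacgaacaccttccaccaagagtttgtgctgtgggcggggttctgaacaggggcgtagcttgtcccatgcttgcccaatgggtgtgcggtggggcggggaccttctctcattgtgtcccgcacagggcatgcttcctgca
Tnni1 (chr1:135799171-135799420, plus strand): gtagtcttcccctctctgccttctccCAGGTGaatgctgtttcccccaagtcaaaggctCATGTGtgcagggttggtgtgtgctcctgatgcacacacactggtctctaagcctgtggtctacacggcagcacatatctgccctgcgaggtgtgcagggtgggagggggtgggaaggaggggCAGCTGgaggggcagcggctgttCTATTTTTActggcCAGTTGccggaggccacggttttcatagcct
The Atp2a1 promoter held 1 E-box, CAGCTG, that of Ryr1 held 0, and that of Tnni1 held 4 E-boxes and 1 match to MEF2.
MEF2 was searched on both strands as CTAAAAATA, CTATTTTTA, CTATTTATA, CTAAATATA and their reverse complements, and the MCAT motif of TEAD factors as CATTCC and GGAATG. No match overlapped another motif in these 3 windows. Of the 8 genes with an entry, 7 held an E-box, 2 an MCAT motif and 1 a MEF2 motif, while 66.2%, 12.6% and 1.39% of 32841 RefSeq promoter windows of the same length did. CAGCTG itself was found in 5 of the 8 and in 13.0% of all windows. A match of letters is a description and not a binding site.

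Of the calcium genes, Atp2a1 differed most between the genotypes. In replicates 1 to 4 of the untreated floxed hearts Atp2a1 was at 0.140, 0.757, 0.311 and 0.273 CPM, from 4, 24, 9 and 8 counts, and with succinate it was at 0.423, 0.507, 0.483 and 0.539 CPM. Untreated Cre hearts were at 14.5, 12.7, 9.44 and 9.999 CPM, and Cre hearts given succinate at 20.5, 16.9, 18.6 and 16.7 CPM. No floxed library came near a Cre library: the lowest Cre value was 12.5 times the highest floxed value. Mean levels were 0.370 ± 0.268 and 11.7 ± 2.38 CPM without succinate (SD, n = 4 each), a ratio of 31.5, and 0.488 ± 0.0491 and 18.2 ± 1.76 CPM with it, a ratio of 37.3. In the fit over all genes the log2 fold change was 4.91 ± 0.26 and 5.18 ± 0.25 (SE).

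Ryr1, the calcium release channel of skeletal muscle, was scarce throughout. Its counts were 11, 5, 5 and 4 in the untreated floxed hearts and 2, 3, 2 and 0 in those given succinate. The untreated Cre hearts had 51, 29, 55 and 24 counts, and those given succinate 64, 47, 72 and 56. Every Cre library stood above every floxed library, although most floxed libraries lay close to the floor of 3 counts. Mean levels were 0.213 ± 0.116 against 1.23 ± 0.454 CPM without succinate and 0.0565 ± 0.0420 against 1.83 ± 0.379 CPM with it (SD, n = 4 each). Summed over 4 libraries and scaled by depth, the Cre to floxed ratio was 5.89 without succinate (exact 95% interval for counting error 3.85 to 9.38, from 25 and 159 counts) and 31.7 with it (15.1 to 79.6, from 7 and 239 counts).

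Casq1, the calcium-binding protein of the skeletal sarcoplasmic reticulum, was well above the floor in both genotypes. Its values were 2.77, 8.26, 3.25 and 4.37 CPM in the untreated floxed hearts and 1.99, 2.03, 2.67 and 2.69 CPM in those given succinate. Cre hearts had 10.4, 17.9, 7.23 and 18.9 CPM without succinate and 9.55, 9.69, 11.7 and 7.32 CPM with it. Without succinate the genotypes overlapped, since floxed replicate 2 exceeded Cre replicate 3. With succinate they did not. Means were 4.66 ± 2.49 and 13.6 ± 5.70 CPM without succinate (SD, n = 4 each; log2 fold change 1.52 ± 0.32, SE) and 2.35 ± 0.389 and 9.56 ± 1.79 CPM with it (1.99 ± 0.34).

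**Figure D1:**
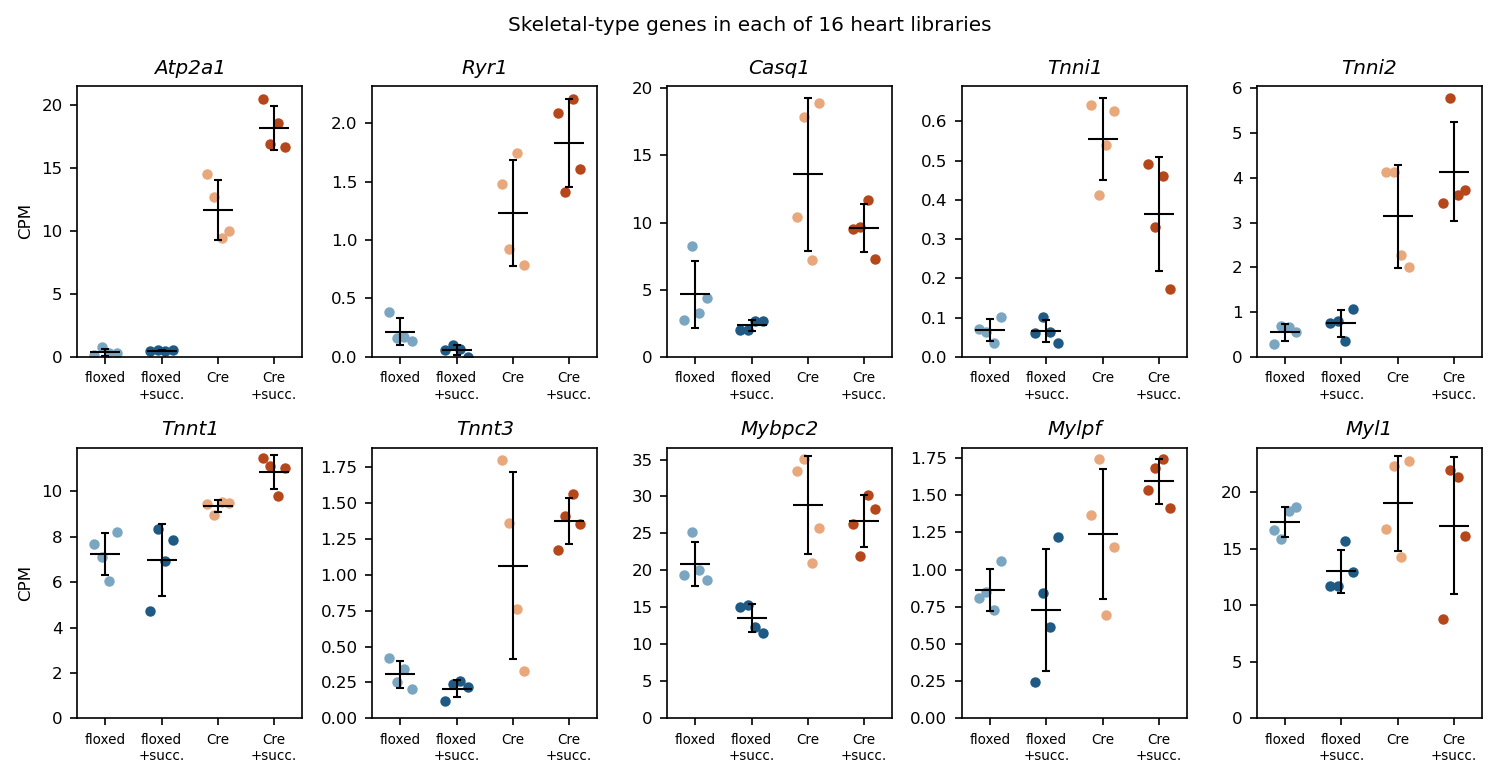
CPM of each of the 10 genes in every library on a linear axis from 0, 1 panel per gene, with the 4 groups of 4 libraries side by side and bars of the mean ± SD. Atp2a1 lies between 9.44 and 20.5 CPM in Cre hearts and at or below 0.757 CPM in floxed hearts, while Myl1 overlaps between the genotypes.

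The inhibitory subunit of troponin, which holds the thin filament off at low calcium, has a fast skeletal form (Tnni2) and a slow skeletal and fetal form (Tnni1). Tnni2 was at 0.281, 0.694, 0.656 and 0.546 CPM in the untreated floxed hearts and 0.755, 0.811, 0.354 and 1.08 CPM with succinate. In Cre hearts it was at 4.13, 4.12, 2.28 and 2.01 CPM without succinate and 3.43, 5.78, 3.62 and 3.72 CPM with it. The 8 Cre libraries all lay above the 8 floxed libraries. Mean levels were 5.76 times higher in Cre hearts without succinate and 5.52 times higher with it, and the fitted log2 fold changes were 2.49 ± 0.35 and 2.43 ± 0.34 (SE).

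Tnni1 had 2, 2, 1 and 3 counts in the untreated floxed hearts and 2, 3, 2 and 1 in those given succinate, at or under the floor in each of these libraries. It had 22, 13, 17 and 19 counts in Cre hearts without succinate and 15, 11, 15 and 6 with it. The groups were separate, at a depth where the floxed level is barely measured. The Cre to floxed ratio of summed counts was 8.22 without succinate (exact 95% interval for counting error 3.95 to 19.8) and 5.45 with it (2.55 to 13.3). Fitted log2 fold changes were 2.93 ± 0.47 and 2.35 ± 0.48 (SE).

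The tropomyosin-binding subunit differed less in its slow form than in its fast form. Tnnt3, fast skeletal troponin T, had 12, 8, 10 and 6 counts in untreated floxed hearts, 4, 7, 8 and 6 in floxed hearts with succinate, 62, 43, 24 and 10 in untreated Cre hearts and 36, 47, 51 and 47 in Cre hearts with succinate. Untreated Cre hearts spread from 0.329 to 1.80 CPM and reached into the floxed range, which was 0.121 to 0.421 CPM. Cre hearts with succinate were at 1.18 to 1.56 CPM and did not. Ratios of summed counts were 3.58 (exact 95% interval for counting error 2.46 to 5.32) without and 6.71 (4.40 to 10.6) with succinate. These intervals leave out the spread among libraries. The fit, which includes it, gave log2 fold changes of 1.76 ± 0.42 and 2.68 ± 0.44 (SE).

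Tnnt1, slow skeletal troponin T, had a higher level in floxed hearts and a smaller difference. It was at 7.69, 7.10, 6.05 and 8.19 CPM in untreated floxed hearts and 4.74, 8.35, 6.92 and 7.87 CPM with succinate. Untreated Cre hearts had 9.43, 8.98, 9.54 and 9.47 CPM, and those given succinate 11.5, 11.1, 9.77 and 11.04 CPM. All Cre libraries were above all floxed libraries, and the ratio of means was 1.29 without succinate and 1.56 with it. The log2 fold changes were 0.34 ± 0.15 and 0.61 ± 0.15 (SE).

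The 3 genes of the myosin filament had smaller ratios than Atp2a1, Ryr1 and Tnni2. Mybpc2, the fast skeletal myosin-binding protein C, was at 19.4, 25.3, 20.1 and 18.7 CPM in untreated floxed hearts and 15.1, 15.3, 12.4 and 11.6 CPM with succinate. In Cre hearts it was at 33.4, 35.1, 20.9 and 25.8 CPM without succinate and 26.3, 21.9, 30.2 and 28.3 CPM with it. The genotypes overlapped without succinate and were separate with it, at log2 fold changes of 0.44 ± 0.14 and 0.93 ± 0.14 (SE).

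Mylpf, the fast skeletal regulatory light chain, was at 0.726 to 1.06 CPM in untreated floxed hearts, 0.242 to 1.22 with succinate, 0.697 to 1.74 in untreated Cre hearts and 1.41 to 1.75 with succinate. The genotypes overlapped without succinate and not with it, and the log2 fold changes were 0.50 ± 0.36 and 1.10 ± 0.37 (SE). Myl1, the fast skeletal essential light chain, was at 15.8 to 18.6 CPM in untreated floxed hearts and 14.2 to 22.7 CPM in untreated Cre hearts. With succinate it was at 11.7 to 15.6 and 8.80 to 21.9 CPM. It overlapped between genotypes in both comparisons, with log2 fold changes of 0.11 ± 0.22 and 0.36 ± 0.22 (SE).

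All 10 genes had a positive genotype value with and without succinate, which the choice of the genes fixes to a large extent. With the quasi-likelihood F-test of edgeR, adjusted by Benjamini-Hochberg over all genes to 0.05, 4 of the 10 were called without succinate (Atp2a1, Ryr1, Tnni1 and Tnni2), beside 0.089% of all tested genes called higher in Cre hearts. With succinate Casq1, Tnnt3 and Mybpc2 joined them, 7 of 10 in all, beside 0.548%. The median log2 fold change of the 10 was 1.64 and 2.17, and that of all genes was 0.00 and -0.01. In 5 genes (Atp2a1, Ryr1, Tnni1, Tnni2 and Tnnt1) the 8 Cre libraries lay above the 8 floxed libraries, beside 0.349% of all tested genes. Over 4 against 4 libraries, 5 of the 10 did not overlap without succinate, beside 3.15%, and 9 with it, all but Myl1, beside 4.63%. These counts restate how the list was chosen. Ryr1, Tnni1 and Tnnt3 would not have passed the filter on low counts on the floxed libraries alone (at least 0.319 CPM in at least 4 libraries), so they were tested because they were higher in Cre hearts. Without replicate 3 of the untreated floxed hearts 2 of the 10 were called without succinate, and with only the 8 untreated libraries in the fit 1 was.

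**Figure D2:**
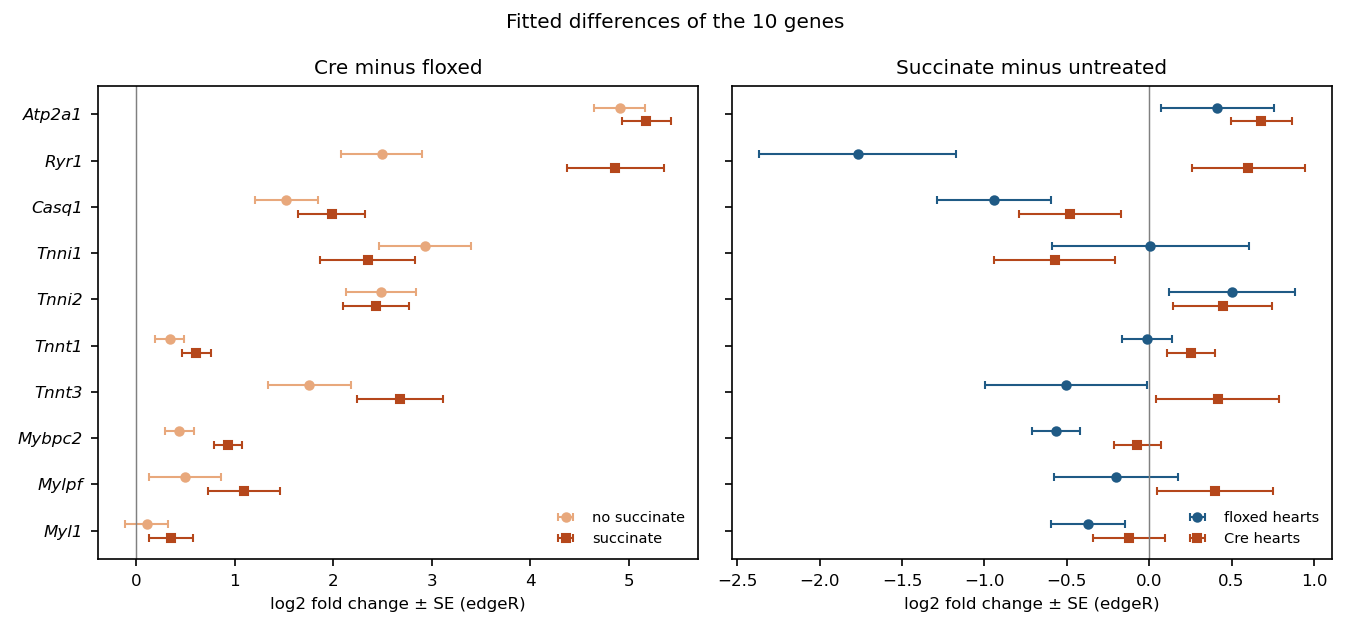
Log2 fold change of the 10 genes between genotypes (left) and with succinate (right), with bars of 1 standard error from the fit of all 16 libraries. Genotype values run from 0.11 to 5.18, while those of succinate within a genotype lie between -1.77 and 0.68 on both sides of 0.

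Per gene length, the order of the 10 genes changed with genotype. Over the 8 floxed hearts the mean level ran from Myl1 (4.81 FPKM), Mybpc2 (4.75), Tnnt1 (3.86), Casq1 (1.87), Mylpf (0.984) and Tnni2 (0.893) down to Tnnt3 (0.220), Atp2a1 (0.125), Tnni1 (0.0251) and Ryr1 (0.00873). Over the 8 Cre hearts it ran from Mybpc2 (7.66 FPKM), Casq1 (6.18), Myl1 (5.72), Tnnt1 (5.48), Tnni2 (5.02) and Atp2a1 (4.34) to Mylpf (1.75), Tnnt3 (1.04), Tnni1 (0.173) and Ryr1 (0.0993). In floxed hearts the ranges over libraries of neighbours in this order overlapped except between Tnni2 and Tnnt3 and between Atp2a1 and Tnni1. In Cre hearts they overlapped except between Atp2a1 and Mylpf and between Tnnt3 and Tnni1. Atp2a1 thus stood with the lowest genes in floxed hearts and above Mylpf in Cre hearts.

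Against their cardiac counterparts the skeletal-type genes remained a small part of each pair. Atp2a1 made up 0.00723% ± 0.00293 of the summed FPKM of Atp2a1 and Atp2a2 in floxed hearts and 0.264% ± 0.0567 in Cre hearts (SD, n = 8 each). Ryr1 went from 0.0198% ± 0.0200 to 0.177% ± 0.0427 of its pair with Ryr2, and Tnni2 from 0.0412% ± 0.0141 to 0.281% ± 0.0916 of its pair with Tnni3. The highest share belonged to Casq1, at 0.718% ± 0.327 and 2.27% ± 0.984 of its pair with Casq2. The other 6 pairs stayed below 1% in both genotype means.

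**Figure D3:**
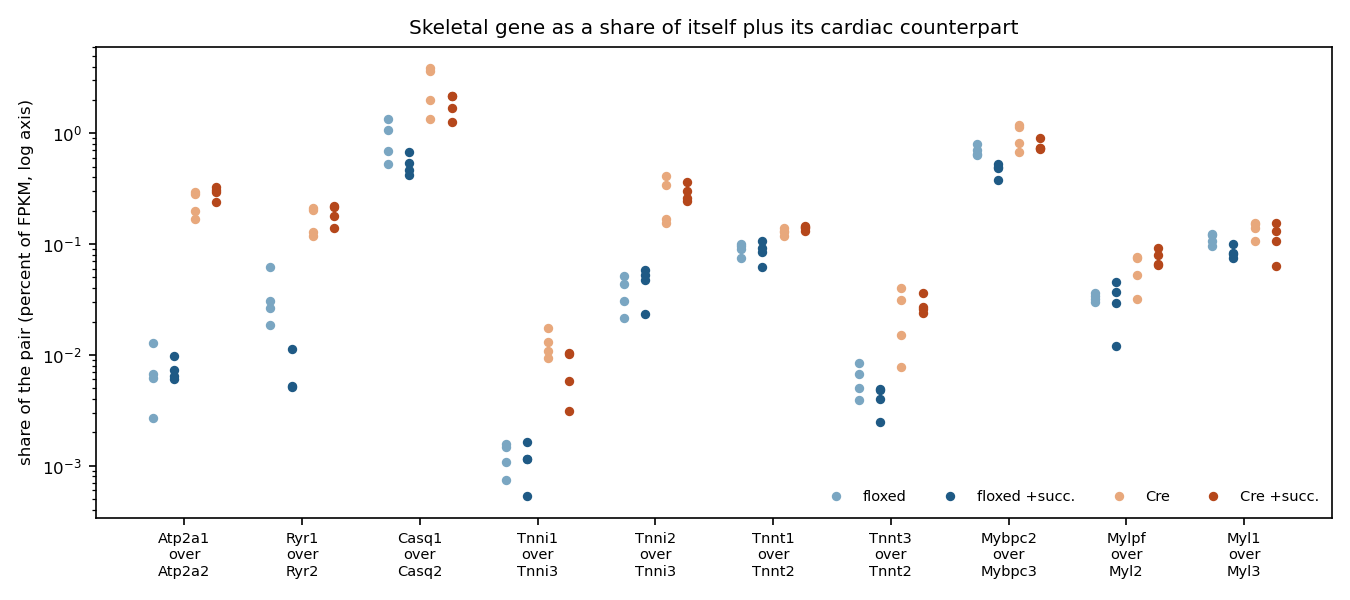
Share of each skeletal-type gene in the summed FPKM of the gene and its cardiac counterpart, in percent on a log axis, 1 point per library in the 4 groups. A single point at 0, Ryr1 in a floxed heart given succinate, cannot be drawn on this axis; Casq1 reaches the highest share, 2.27% on average in Cre hearts.

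A list of 10 cardiac genes held these counterparts and also Tnnc1 and Pln, which are in none of the pairs. None of the 10 was called between genotypes, with medians of -0.05 without succinate and -0.08 with it. At an unadjusted p under 0.05 there was 1 of 10 in each comparison, and DESeq2 and limma on log2(FPKM + 1) called 0. That gene was Myl2 without succinate (-0.32 ± 0.15) and Tnnc1 with it (0.37 ± 0.13). The ryanodine receptor Ryr2 was at 0.17 ± 0.20 and -0.07 ± 0.20, and the ventricular troponin I gene Tnni3 at -0.31 ± 0.15 and -0.25 ± 0.15 (log2 fold change, SE). In bulk tissue, more cells of a type and more RNA per cell cannot be told apart.

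The effect of succinate on the 10 genes is a measure that did not choose them, although it shares libraries with the genotype contrasts that did. In floxed hearts 1 of the 10 was called, Mybpc2, which fell by 0.57 ± 0.14 in log2 fold change (SE, 4 samples per group; edgeR adjusted p = 0.0161), from 20.9 ± 2.99 to 13.6 ± 1.87 CPM (SD). All 4 treated hearts were below all 4 untreated hearts. Of all tested genes 13.1% were called in that comparison, and 5.64% were called lower, so 1 of 10 is near the background. The call was lost without replicate 3 of the floxed hearts given succinate (adjusted p = 0.0502) and on log2(FPKM + 1) with limma (adjusted p = 0.0638).

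Ryr1 and Casq1 were also lower in each treated than in each untreated floxed heart, without passing the threshold. Ryr1 had a log2 fold change of -1.77 ± 0.60 (SE; edgeR adjusted p = 0.0573) on 25 and 7 counts in total, and Casq1 of -0.94 ± 0.34 (adjusted p = 0.0810). DESeq2 called both (adjusted p = 0.0422 and 0.0232). Myl1 was the fourth gene with separate groups, at -0.37 ± 0.22 (adjusted p = 0.290), and 4 of 10 stands beside 10.1% of all tested genes. Atp2a1 was at 0.41 ± 0.34 (adjusted p = 0.461). Without replicate 2 of the untreated floxed hearts, the library with 24 Atp2a1 counts, it was at 1.01 with adjusted p = 0.0359.

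In Cre hearts none of the 10 was called by edgeR, beside 0.917% of all tested genes; 1 of the 10 had an unadjusted p under 0.05, and DESeq2 and limma on log2(FPKM + 1) called 1 each. That gene was Atp2a1, at 0.68 ± 0.18 (log2 fold change, SE; edgeR adjusted p = 0.0851), with 4 treated hearts above 4 untreated hearts. Its adjusted p was 0.0044 in DESeq2, 0.0475 on log2(FPKM + 1) and 0.0235 without replicate 2 of the untreated floxed hearts, which enters the shared estimate of spread. Tnnt1 also had separate groups, at 0.25 ± 0.15 (adjusted p = 0.455), and 2 of 10 stands beside 3.93% of all tested genes. Casq1 was at -0.48 ± 0.31 and Tnni1 at -0.57 ± 0.37, with adjusted p = 0.514 and 0.513.

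Averaged over genotypes, Casq1 fell by 0.71 ± 0.23 (log2, SE; edgeR adjusted p = 0.0404) and Mybpc2 fell by 0.32 ± 0.10 (adjusted p = 0.0340), 2 of 10 beside 19% of all tested genes. The call of Casq1 was lost in 10 of the 16 fits that left out a library (adjusted p up to 0.0814) and in 5 of 8 other alternatives (up to 0.161). That of Mybpc2 was lost in 7 of 16 (up to 0.0719) and 2 of 8 (up to 0.0975). Atp2a1 was at 0.55 ± 0.20 (adjusted p = 0.0575). It was called by DESeq2 (adjusted p = 0.0211), by limma on log2(FPKM + 1) (0.0214, and 0.00779 with a mean FPKM of at least 1) and without replicate 2 of the untreated floxed hearts (0.00222).

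The difference between the succinate effects, Cre minus floxed, was tested as an interaction. By edgeR 0 of 14607 genes (0%) passed and 709 had an unadjusted p under 0.05, while DESeq2 called 3 and limma on log2(FPKM + 1) called 2. None of the 10 genes was among those called by DESeq2 or limma, and 2 of the 10 had an unadjusted p under 0.05. Ryr1, which was lower with succinate in floxed hearts and had a positive value in Cre hearts, had an interaction of 2.37 ± 0.69 (log2, SE; edgeR adjusted p = 0.930), and Mybpc2 of 0.49 ± 0.20 (adjusted p = 0.970). That more of the 10 genes were called between genotypes with succinate than without it is therefore not backed by a tested difference for any of them.

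No other tested gene of the skeletal calcium release machinery was called by edgeR between genotypes. Of 20 listed genes of skeletal excitation-contraction coupling 17 were tested, and edgeR called 0 without succinate (3 at an unadjusted p under 0.05) and 0 with it (2); DESeq2 called 0 and 1, and limma on log2(FPKM + 1) 0 in both. Jsrp1, a junctional protein of the skeletal sarcoplasmic reticulum, had 56 counts in all floxed and 200 in all Cre libraries, with log2 fold changes of 1.27 ± 0.49 and 2.44 ± 0.57 (SE; edgeR adjusted p = 0.471 and 0.0569). Cacna1s, the voltage sensor that opens Ryr1, was at -0.58 ± 0.19 without and -0.39 ± 0.20 with succinate (SE; edgeR adjusted p = 0.394 and 0.487). Besides Jsrp1, the genes at an unadjusted p under 0.05 were lower in Cre hearts. They were Cacna1s and Jph2 (-0.37 ± 0.14) without succinate and Jph1 (-0.48 ± 0.14) with it. With succinate in floxed hearts 3 of the 17 rose, beside 7.48% of all tested genes, among them the junctophilin gene Jph1 (1.02 ± 0.14), and 2 fell, beside 5.64%, the ryanodine receptor-binding Fkbp1a (-0.26) and the cardiac junctophilin gene Jph2 (-0.45).

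Of 20 other sarcomere isoforms 10 were tested. Between genotypes edgeR called 0 without succinate (2 at an unadjusted p under 0.05, 0 in DESeq2 and in limma on log2(FPKM + 1)) and 1 with it. That gene was Acta1, the skeletal alpha-actin that the fetal and stressed heart also expresses, at 310 ± 83.2 against 1005 ± 181 CPM (SD, n = 4 each; log2 fold change 1.66 ± 0.33, SE; adjusted p = 0.0310), a call that limma on log2(FPKM + 1) did not make. Of 14 tested regulators of muscle genes, edgeR called 0 without succinate (4 at an unadjusted p under 0.05, 1 in DESeq2, 0 in limma) and 1 with it. Tbx15, a T-box factor of fast fibres, rose by 2.78 ± 0.44 (adjusted p = 0.00391), from 0.283 to 2.02 CPM, and limma called 0 of the 14. Of 8 fetal cardiac genes 1 was called higher without succinate, Uchl1 (0.90 ± 0.12), and 4 with it, beside 0.089% and 0.548% of all tested genes. This list was chosen with earlier results of these data known, so the comparison with all genes is a description and no test. The 4 were Uchl1, the natriuretic peptide gene Nppa (3.13 ± 0.46), the stretch-responsive Ankrd1 (1.11 ± 0.16) and Acta1, which both lists hold. Without succinate Nppa was at 1.47 ± 0.43 and Ankrd1 at 0.34 ± 0.16 (edgeR adjusted p = 0.336 and 0.567). The interaction was not called for these genes either. An unadjusted p under 0.05, in either direction, was reached by 5 and 6 of the 8. DESeq2 called 1 and 5, and limma on log2(FPKM + 1) called 1 and 3. Among the 5 without succinate was Myh7, which was lower in Cre hearts (-0.83 ± 0.39). Nppb was negative there too (-0.36 ± 0.29). Of the 8 genes, 6 had a positive value without succinate and 8 with it.

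Markers of skeletal muscle tissue were measured beside these results. Of 20 listed, 18 were in the table and 6 were tested, and edgeR called none between genotypes (2 at an unadjusted p under 0.05 without succinate and 1 with it; DESeq2 0 and 1, limma on log2(FPKM + 1) 0 in both). The other 12 had at most 16 counts in any library, 187 in all floxed and 313 in all Cre libraries together. Of these 12, 9 had more counts in Cre, 2 had more in floxed hearts and 1 had equal counts. The fast myosin gene Myh1 had 0 to 6 counts per library, 1 in all floxed against 13 in all Cre libraries, and Myh2 had 0 to 3, 5 against 5. The myogenic factor genes Myod1 and Myog had 0 to 3 and 0 to 4 counts per library, with 0 against 7 and 1 against 8 in total. Slow myosin-binding protein C (Mybpc1) had 28 against 72, fast alpha-actinin (Actn3) 15 against 39 and fast troponin C (Tnnc2) 17 against 35 counts. Parvalbumin (Pvalb) had 36 against 28 and Ampd1 3 against 2.

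Without Eno3, Pgam2 and Ckm, which the heart also expresses, the summed level of the 15 remaining markers was 13.4 to 22.0 CPM in untreated floxed, 12.6 to 18.1 in treated floxed, 12.1 to 17.2 in untreated Cre and 9.90 to 14.3 CPM in treated Cre hearts. Most of this sum was Cacna1s, with 3710 counts in all floxed and 2894 in all Cre libraries. Without Cacna1s too, a step chosen after the values were seen, the sum of 14 markers was 1.57 to 2.11, 0.898 to 1.75, 2.20 to 3.73 and 1.76 to 2.94 CPM in the same order. The Cre libraries then lay above the floxed libraries without succinate and, narrowly, with it. Over all 18 markers the sums were 2392 to 3494, 3198 to 3628, 1985 to 3022 and 3144 to 3643 CPM in the same order. Much of the difference in the sum of 14 was Jsrp1. Its mean was 0.348 and 0.863 CPM in untreated floxed and Cre hearts, within mean sums of 1.94 and 2.91 CPM. With succinate it was 0.118 and 0.667 CPM within 1.38 and 2.26 CPM, while Stac3, Pvalb and Myh2 were lower in Cre hearts.

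Of 6 atrial markers, Nppa and Myl4 were tested. The summed level of the 6 was 172 to 467 CPM in untreated floxed, 64.6 to 90.8 in treated floxed, 355 to 1759 in untreated Cre and 446 to 934 CPM in treated Cre hearts, nearly all of it Nppa. Sln had 0 to 2 and Myl7 0 to 11 counts per library. Bmp10 had 6 counts in all floxed against 33 in all Cre libraries, and Mybphl 3 against 26. Brown adipocyte markers summed to 35.1 to 48.5 CPM over all 16 libraries. Of the 6 listed, only Cidea passed the filter on low counts. Between genotypes Cidea was at 0.01 ± 0.11 without and 0.06 ± 0.11 with succinate (log2 fold change, SE). The part of skeletal muscle, atrial tissue and brown fat in the values of the 10 genes was not tested.

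**Figure D4:**
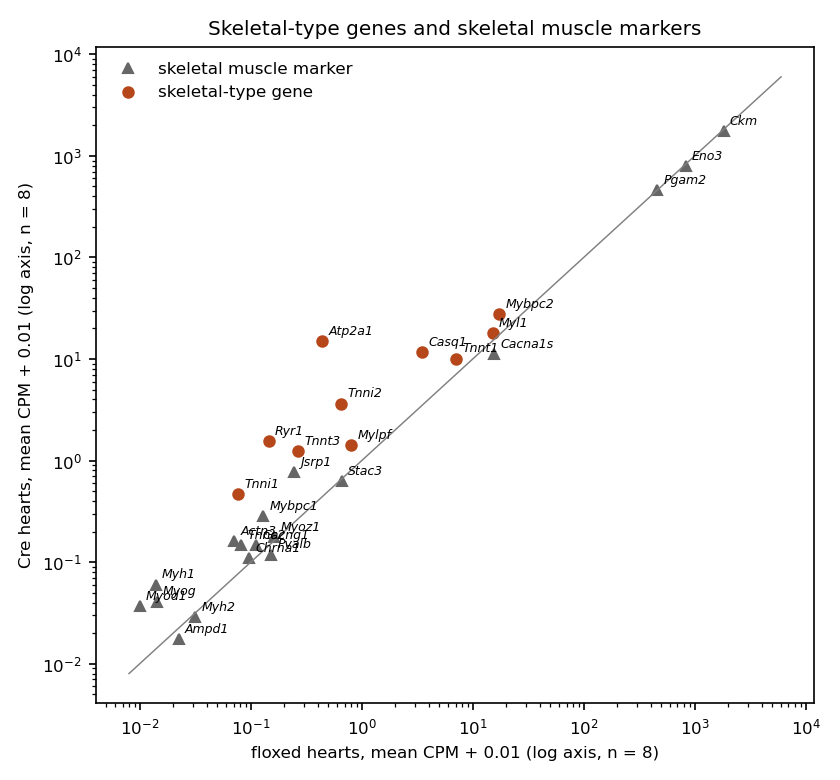
Mean CPM in Cre hearts against mean CPM in floxed hearts (n = 8 each, log axes, a small constant added to both) for the 10 skeletal-type genes (circles) and 18 skeletal muscle markers (triangles), with a line of equal levels. All 10 circles lie above the line, Atp2a1 farthest, while the triangles lie on both sides, with Cacna1s below it and Jsrp1 and Mybpc1 above.

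By chromosome, 7 of the 10 genes lie on chromosome 7 (Atp2a1, Ryr1, Tnni2, Tnnt1, Tnnt3, Mybpc2 and Mylpf) and 3 on chromosome 1 (Casq1, Tnni1 and Myl1), which hold 7.64% and 5.85% of the tested genes. Of the 9 other genes called higher in untreated Cre hearts 6 also lie on chromosome 7, among them Cyp2b10 (log2 fold change 3.59 ± 0.27). With succinate 12 of 73 did (16.4%). The cause of this share was not tested.

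Apart from Tnni2 and Tnnt3, which are neighbours of each other, no tested gene next to a called gene was itself called. The 3 nearest protein-coding genes on either side of the 7 genes called between genotypes gave 38 neighbours outside the list of 10, of which 33 were tested. None was called without succinate (3 at an unadjusted p under 0.05) or with it (7), in edgeR, DESeq2 or limma on log2(FPKM + 1), and the median log2 fold changes were -0.07 and -0.01. Tnni2 and Tnnt3 lie 3 genes apart, with Lsp1 (-0.07 and 0.34) and Prr33 (-0.78 and -0.59) between them. Rabep2, which overlaps Atp2a1 on the other strand, was at -0.09 ± 0.13 and 0.12 ± 0.13. The sources used here do not give strandedness, so reads of the overlapping pairs Rabep2 and Atp2a1, Prr33 and Tnnt3, and Gm17224 and Casq1 cannot be told apart with certainty.

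**Figure D5:**
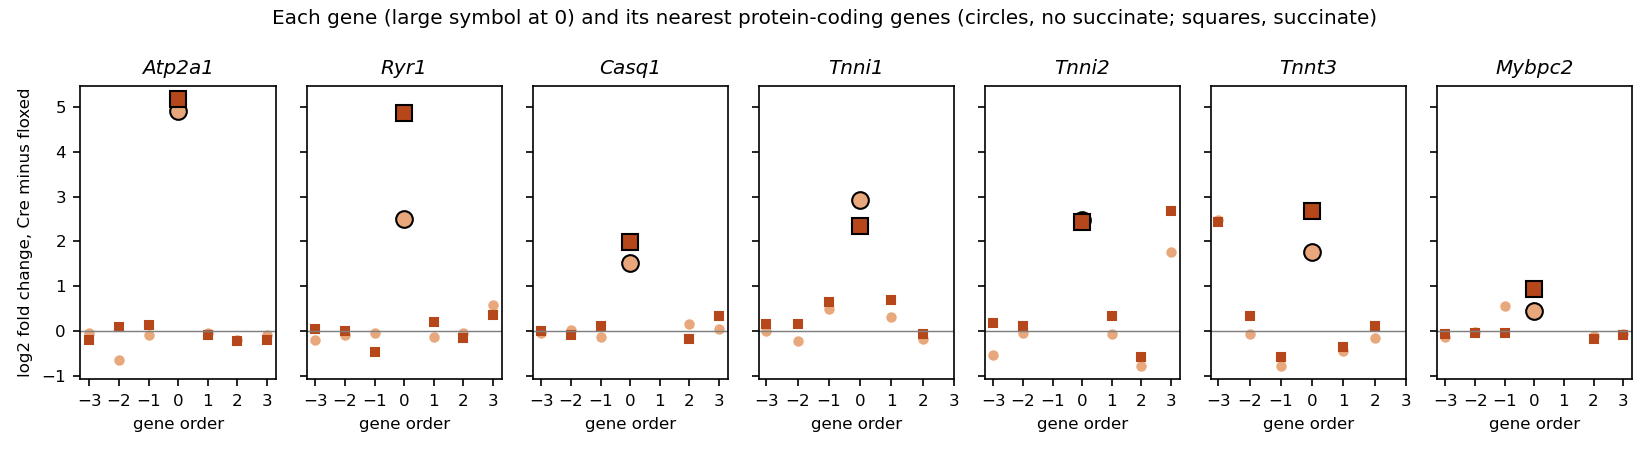
Log2 fold change between Cre and floxed hearts, without and with succinate, of each called gene and of its nearest tested neighbours by gene order. Circles are without and squares with succinate. Apart from Tnni2 and Tnnt3, which appear in each other's panel, the neighbours lie within 0.78 of 0 without succinate and 0.68 with it.

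The genes most like Atp2a1 over the 16 libraries, by Pearson correlation of log2 CPM among 11570 genes, were Cobl (0.953), Cyp2b10 (0.951), Rhod (0.901), Gria3 (0.884) and Epn3 (0.875). For Tnni2 they were Cyp2b10 (0.923), Cobl (0.887), Psat1 (0.878), Ino80c (0.873) and Sytl2 (0.864). These values follow the split between genotypes, which the libraries share. After each group mean was removed, Usp46 (0.824) and Opn4 (0.814) were most like Atp2a1, and Slc35b1 (0.839) and Lyar (0.814) most like Tnni2, and none of the genes above was among the first 5.

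Within groups the correlations among the 10 genes went both ways. Of 45 pairs, 25 had a positive correlation of deviations from the group means over the 16 libraries, with a median of 0.036 and a range of -0.655 to 0.683. Tnnt1 and Mylpf (0.683) and Atp2a1 and Casq1 (0.641) were highest, and Ryr1 and Casq1 (-0.655) lowest. Some of the genes had few counts, which adds counting error to these values.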

How the data were processed

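Bulk RNA from 16 heart samples was sequenced. Libraries came from TRIzol-extracted RNA and the VAHTS Universal V6 kit, per the labels' protocols. The deposited counts are whole numbers of reads per gene, and the deposited FPKM are these counts scaled by the authors by library total and gene length. The submitters' processing notes name GRCm39 as the build and, as tools, HISAT2, fastp, DESeq2, HTSeq and R 3.2.0. Nothing in the labels ties each sample to its own animal, so a p-value reflects the spread among these samples only, which may be technical.

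Counts were fitted with edgeR 4.0.16 (R 4.3.3; filterByExpr with a minimum count of 10, TMM factors of 0.946 to 1.09, robust quasi-likelihood F-test), with 4 group means and Benjamini-Hochberg adjustment over 14607 genes to 0.05. The standard error is the log2 fold change divided by the square root of F. Replicates differed beyond counting error (chi-square of 10.7 to 57.8 for each degree of freedom), so none was counted as a repeat. Alternatives were DESeq2 1.42.0, limma 3.58.1 on log2(FPKM + 1) or log2(FPKM + 0.1), other filters and scaling, only the groups compared, a replicate block and leaving out each library. Intervals of count ratios are exact and cover counting error only.

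The genes and lists were chosen with earlier results of these data known. Named were all 10 genes, up to 4 called genes of smallest p in each list or examples where none was called, the 5 genes of highest correlation with Atp2a1 and with Tnni2, and the 3 nearest genes on either side of each called gene; list genes outside that rule (Jsrp1, Cacna1s and the markers of low count) were named after their values were seen. Chromosomes, gene order and promoters came from RefSeq tables of GRCm38.p6 (23549 of 24371 genes matched).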

Additional observations from a re-analysis of the deposited data

Results flagged for a closer look

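Each of the 10 genes was examined in each of the 4 groups for a library far from the other 3, which made 40 groups, and chance alone flags about 1 in 20. In 2 groups a library stood apart. Ryr1 was at 0.386 CPM (11 counts) in replicate 1 of the untreated floxed hearts, and the other 3 were at 0.136 to 0.173 CPM. Tnni2 was at 5.78 CPM in replicate 2 of the Cre hearts given succinate, and the other 3 were at 3.43 to 3.72 CPM.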

How the results depend on the processing

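Direction was kept in most alternatives: of the log2 fold changes of single genes, 13 changed sign in alternatives other than leaving out a library and 22 when a library was left out, and none of these was past the threshold in either fit. All genotype values of the 10 genes stayed positive. This, like the counts of the 10 called between genotypes below, restates to a large extent how the list was chosen. The cause of the changes below was not tested.

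In floxed hearts 1917 genes were called for succinate, against 1122 on log2(FPKM + 0.1), 954 on log2(FPKM + 1) and 1018 to 2106 when a library was left out. It was 1150 and 1079 without untreated replicate 1 or 3 and 1018 and 1071 without treated replicate 1 or 3. Of the 10 genes 1 was called there, against 3 with DESeq2, 0 on log2(FPKM + 1) and 0 to 2 when a library was left out. In Cre hearts 134 were called, against 483 with DESeq2, 38 on log2(FPKM + 0.1), 44 on log2(FPKM + 1), 46 with only the groups compared and 22 to 183 when a library was left out. It was 28 without untreated replicate 1, 28, 62, 49 and 22 without treated replicates 1 to 4, and 83 and 85 without replicate 3 of the untreated or 2 of the treated floxed hearts. Of the 10 genes 0 were called there, against 1 with DESeq2, 1 on log2(FPKM + 1), 1 with a mean FPKM of at least 1 and 0 to 1 when a library was left out.

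Averaged over genotypes 2781 were called, against 1798 on log2(FPKM + 1) and 2015 to 2899 when a library was left out. Of the 10 genes 2 were called, Casq1 and Mybpc2, against 3 with DESeq2, 0 on log2(FPKM + 0.1), 1 on log2(FPKM + 1), which was Atp2a1, 1 with no filter and 0 to 2 when a library was left out. With a mean FPKM of at least 1, 987 were higher and 1357 lower, against 1547 and 1234, and in floxed hearts 693 were higher and 907 lower, against 1093 and 824. The interaction called 0, against 3 with DESeq2, 1 on log2(FPKM + 0.1), 2 on log2(FPKM + 1) and 0 when any library was left out.

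Between genotypes without succinate 16 were called, against 86 with DESeq2, 7 with a mean FPKM of at least 1, 3 with only the groups compared and 4 to 23 when a library was left out, 7 and 4 without floxed replicates 1 and 3. Of the 10 genes 4 were called, against 2 with a mean FPKM of at least 1, 1 with only the groups compared, 2 with a mean CPM of at least 1 and 2 to 5 when a library was left out. With succinate 101 were called, against 307 with DESeq2, 52 on log2(FPKM + 0.1), 41 on log2(FPKM + 1), 51 with a mean FPKM of at least 1 and 44 to 134 when a library was left out. It was 67, 44 and 56 without Cre replicates 2, 3 and 4 and 46, 66 and 51 without floxed replicates 1, 2 and 3. Of the 10 genes 7 were called, against 4 with a mean CPM of at least 1, a filter that 3 of the 10 do not pass, and 5 to 7 when a library was left out.

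Several values changed sign. Tnni1 with succinate in floxed hearts was at 0.01, and at -0.0032 with DESeq2, -0.0034 with RLE size factors, -0.0011 on log2(FPKM + 1), -0.0086 on log2(FPKM + 0.1) and -0.26 to 0.27 when a library was left out. Left-out libraries gave -0.12 to 0.13 for Tnnt1 and -0.59 to 0.095 for Mylpf in floxed hearts, -0.19 to 0.058 for Mybpc2 and -0.30 to 0.090 for Myl1 in Cre hearts. On average over genotypes they gave -0.21 to 0.11 for Tnnt3 and -0.096 to 0.25 for Mylpf. Averaged Ryr1 was at -0.58 on the counts and at 0.018 and 0.078, and averaged Tnnt3 at 0.068 and 0.080, on log2(FPKM + 1) and log2(FPKM + 0.1). The interaction of Atp2a1 was -0.35 to 0.53 and that of Tnni2 -0.29 to 0.18 when a library was left out, and Tnni2 was at 0.15, 0.044 and 0.15 on log2(FPKM + 1), log2(FPKM + 0.1) and with a mean FPKM of at least 1.

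Groups share replicate numbers in the labels. Of 16 pairs of same-numbered samples, 3 had a correlation of deviations over 0.1 (range -0.112 to 0.320). The highest were those of replicate 1 between genotypes, 0.269 without and 0.320 with succinate, and their cause was not tested. The best match had the same number in 12 of 48 cases, and the numbers were not used as pairs in the main fit. With a replicate block 1903, 136, 2826 and 0 genes were called for succinate in floxed hearts, in Cre hearts, on average and in the interaction, and 11 and 92 between genotypes. Of the 10 genes 2, 0, 1 and 0 were called (Ryr1 joined Mybpc2 in floxed hearts, adjusted p = 0.0480), and 4 and 6 between genotypes. In this block fit Tnni1 in floxed hearts was at -0.0061 and averaged Tnnt3 at 0.020.

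Depth limits Tnni1 and Ryr1 most, which had 1 to 3 and 0 to 11 counts in floxed libraries.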
